A study of Mus musculus with 4 samples.

Results

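Receptors of the TGFB and BMP pathways, targets of these receptors and the ligand *Tgfb2* were followed in single endothelial cells and pericytes of mouse hyaloid vessels. The members were a given list of 10 genes, found by symbol among the 32285 mouse genes counted: the receptors *Tgfbr2*, *Eng*, *Acvrl1* and *Bmpr2*, the targets *Id1*, *Id2*, *Id3*, *Smad6* and *Smad7*, and the ligand *Tgfb2*. All 10 were found, and all 10 had at least 1 UMI in the retained cells. Together they took 345 of 111508 UMIs in 32 cells.

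The study compared mice that lost the adhesion receptor GPR124 (gene *Adgra2*) from endothelium with control littermates. In the Gpr124 dEC/dEC pups, VECad-Cre-ERT2, a Cre driven by an endothelial promoter and switched on by tamoxifen, recombined the floxed alleles, so that cells other than endothelium were not targeted. The Gpr124 fl/fl pups carried the floxed alleles without Cre, and both genotypes received tamoxifen from P1 to P4. Vitreous bodies were taken at P6 and pooled by genotype, 7 Gpr124 fl/fl and 9 Gpr124 dEC/dEC pups, so that a genotype is represented by a single suspension, 1 sample. Cells of either suspension went into plates of 384 wells, a pair per genotype. Plate 1 received CD31-positive cells and plate 2 PDGFRB-positive cells, and some wells of the Gpr124 dEC/dEC plate 2 also received CD31-positive cells. SORT-seq, the method used, tags the 3′ end of each transcript with a well barcode and a random unique molecular identifier (UMI), so that copies made during amplification are counted as 1 transcript.

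TGFB and BMP ligands bind pairs of type I and type II receptor kinases, which phosphorylate SMAD proteins that enter the nucleus and regulate transcription. In endothelium, the type I receptor ALK1 (*Acvrl1*), the co-receptor endoglin (*Eng*) and BMPR2 carry BMP9 and BMP10 signals, and the *Id* genes and the inhibitory SMADs are induced downstream. TGFB signals through TGFBR2 are known for their part in the exchange between endothelium and the pericytes that cover it.

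Wells were retained with 1000 to 8000 UMIs, after plate totals were scaled to the highest plate median, and with less than 10% mitochondrial UMIs. Endothelial cells were wells with *Cldn5* and without *Pdgfrb* UMIs, and pericytes were the reverse. Of 1536 wells, 47 passed the limits on UMIs and 42 also the mitochondrial limit. Of these 42, 3 held both markers and 7 neither, and were left out. The 11 endothelial cells comprised 2 and 3 cells of Gpr124 fl/fl plates 1 and 2, and 4 and 2 cells of Gpr124 dEC/dEC plates 1 and 2. The 21 pericytes comprised 6 and 3 cells of Gpr124 fl/fl plates 1 and 2 and 12 cells of Gpr124 dEC/dEC plate 2, while Gpr124 dEC/dEC plate 1 gave 0. Gate and class therefore differed: the CD31 plate of Gpr124 fl/fl gave more pericytes than endothelial cells. All 384 well barcodes were used in every plate, and 10 of the 32 retained cells had a barcode that also held at least 1000 UMIs in another plate.

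The retained cells of a class in a plate were summed, which gave 4 endothelial and 3 pericyte sums. The endothelial sums held 6225, 8959, 5922 and 9942 UMIs in Gpr124 fl/fl plates 1 and 2 and Gpr124 dEC/dEC plates 1 and 2. The pericyte sums held 18014, 14095 and 48351 UMIs in Gpr124 fl/fl plates 1 and 2 and Gpr124 dEC/dEC plate 2. Over all plates this was 31048 UMIs in endothelial cells and 80460 in pericytes, so a single UMI weighed more in endothelium, and 1 cell supplied 69.4% of the UMIs of the endothelial cells of Gpr124 dEC/dEC plate 2. Levels below are UMIs per 10000 UMIs of the sum. Intervals are exact, at 95%, and hold only the error of counting. Because a genotype was 1 sample, genotype ratios carry such an interval in place of a test.

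Marker lists described the classes. The 14 endothelial markers, of which *Eng* is itself a member, summed to 112 and 119 UMIs per 10000 in endothelial cells of Gpr124 fl/fl plates 1 and 2, and to 154 and 135 in those of Gpr124 dEC/dEC plates 1 and 2. In pericytes they summed to 9.99, 9.93 and 10.5, with *Cldn5* at 0 by rule and *Cd34* at 0 in all 3 sums. The 12 pericyte markers, led by *Rgs5* with 470 UMIs in Gpr124 dEC/dEC plate 2, summed to 193, 115 and 193 in pericytes and to between 3.35 and 35.3 in endothelial cells. The highest of these endothelial values was in Gpr124 fl/fl plate 1, where *Mcam* led with 10 UMIs. Of the 12 macrophage markers, *Csf1r*, *Mrc1*, *Tyrobp* and *Cd68* were at 0 in all 7 sums. *C1qb* had UMIs in 3 sums and *Lyz2* in 2, while the other 6 had them in the Gpr124 dEC/dEC pericytes alone. The list summed to 3.52 UMIs per 10000 (2.05 to 5.63) in the Gpr124 dEC/dEC pericytes and to 0 in the pericytes of both Gpr124 fl/fl plates. In endothelial cells it summed to 0 and 1.12 in Gpr124 fl/fl plates 1 and 2 and to 0 and 3.02 in Gpr124 dEC/dEC plates 1 and 2, with *C1qb* leading at 1 and 2 UMIs.

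*Adgra2*, the deleted gene (ENSMUSG00000031486, chromosome 8, 27085583 to 27123436, + strand, GRCm38), had 2 and 1 UMIs in the endothelial cells of Gpr124 fl/fl plates 1 and 2 and 0 in both Gpr124 dEC/dEC plates. This was 3 UMIs in Gpr124 fl/fl endothelium (1.98 per 10000, 0.407 to 5.77) against 0 in Gpr124 dEC/dEC endothelium (0 to 2.33). Both genotypes were at or under the floor of 3 UMIs and the intervals overlapped, so no fold is given and a loss was not detectable at this depth. Pericytes, which the Cre does not target, held 6, 1 and 17 UMIs in Gpr124 fl/fl plates 1 and 2 and Gpr124 dEC/dEC plate 2. The count is of 3′ ends, and whether they lie in the deleted part is not given in the sources used here, so it checks the labels only in part.

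**Figure D1:**
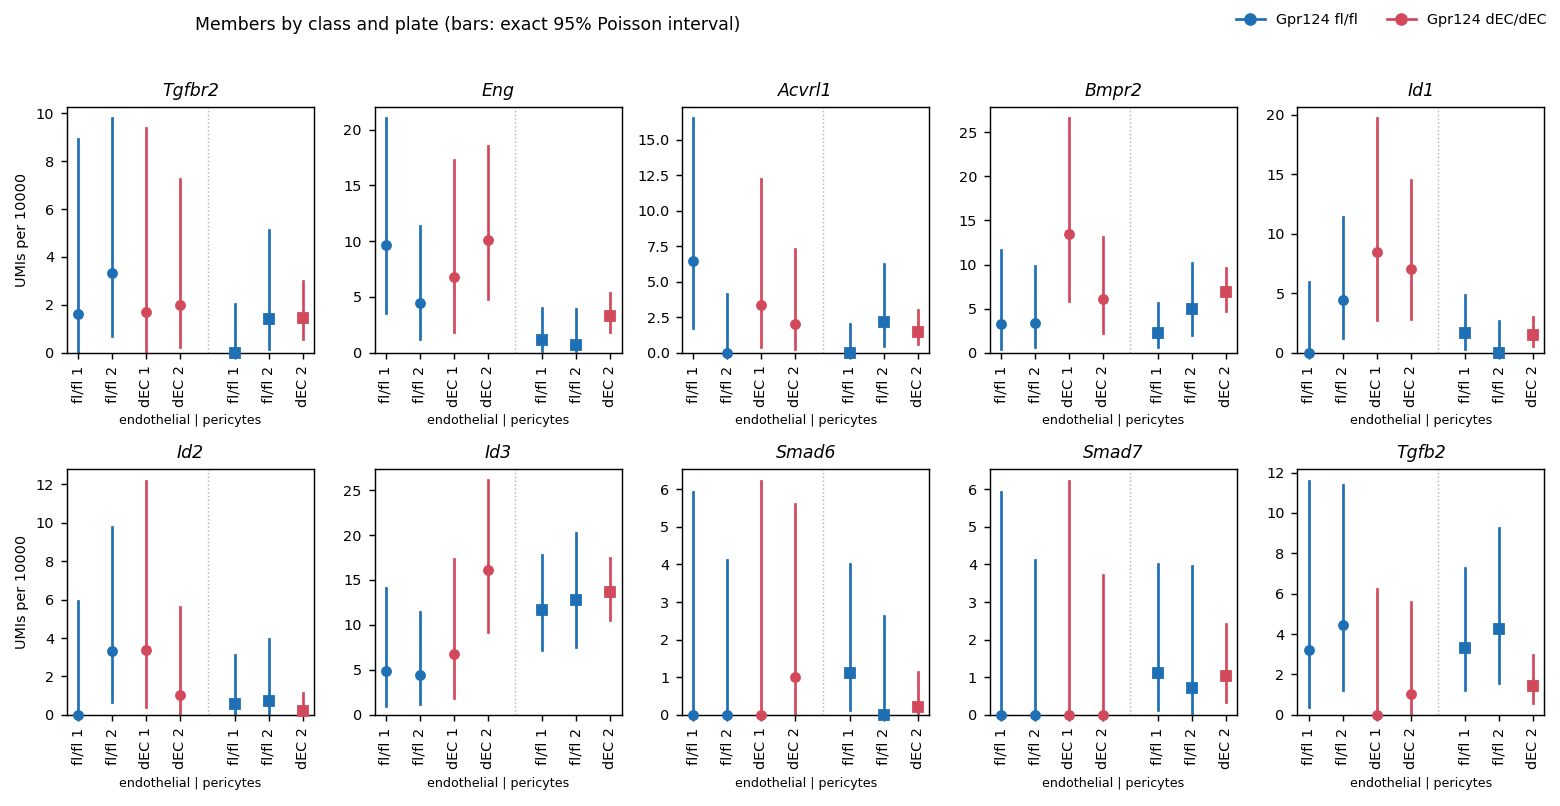
UMIs per 10000 (vertical axis, a scale of its own in each panel) of the 10 members in each sum of class and plate (horizontal axis), with endothelial cells as circles left of the dotted line, pericytes as squares right of it, Gpr124 fl/fl in blue and Gpr124 dEC/dEC in red. Bars are exact 95% Poisson intervals. *Eng* lay between 4.46 and 10.1 in endothelial cells and between 0.709 and 3.31 in pericytes, and *Id3* lay between 11.7 and 13.7 in pericytes.

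The receptors as a group were seen in both classes. Summed over the 4 genes, endothelial cells held 20.9 and 11.2 UMIs per 10000 in Gpr124 fl/fl plates 1 and 2 and 25.3 and 20.1 in Gpr124 dEC/dEC plates 1 and 2. Pericytes held 3.33 and 9.22 in Gpr124 fl/fl plates 1 and 2 and 13 in Gpr124 dEC/dEC plate 2. The highest pericyte sum lay above the lowest endothelial sum. Pooled over plates, the endothelial level was 18.7 and the pericyte level 10.2, a log2 ratio of 0.87 (0.36 to 1.38). This ratio was -0.12 (-0.65 to 0.39) when classes were taken from the sort gates, an alternative that takes every well of Gpr124 dEC/dEC plate 2 as PDGFRB because the positions of its CD31 wells are not given in the sources used here. By gate, 6 wells of Gpr124 fl/fl plate 1 that were pericytes by markers counted as endothelial cells. The pooled ratio by markers was 1.61 (0.77 to 2.48) without Gpr124 dEC/dEC plate 2.

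*Eng*, the co-receptor that endothelium is known for (ENSMUSG00000026814), was higher in endothelial cells by its counting interval. The gene lies on the + strand of chromosome 2 at 32646595 to 32682669. Endothelial cells held 6 and 4 UMIs in Gpr124 fl/fl plates 1 and 2 and 4 and 10 in Gpr124 dEC/dEC plates 1 and 2, which were levels of 9.64, 4.46, 6.75 and 10.1 per 10000. Pericytes held 2, 1 and 16 UMIs in Gpr124 fl/fl plates 1 and 2 and Gpr124 dEC/dEC plate 2, levels of 1.11, 0.709 and 3.31. All 4 endothelial sums lay above all 3 pericyte sums. The pooled log2 ratio of endothelial cells over pericytes was 1.71 (0.78 to 2.66), while *Eng* did not pass edgeR's test without a filter, at a log2 fold change of 0.98 (standard error 0.64). The pooled ratio was 0.13 (-0.86 to 1.04) with classes from the sort gates and 2.83 (0.99 to 5.27) without Gpr124 dEC/dEC plate 2.

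Among pericytes, *Eng* stood at 3.31 UMIs per 10000 in Gpr124 dEC/dEC and 0.934 in Gpr124 fl/fl, a log2 ratio of Gpr124 fl/fl over Gpr124 dEC/dEC of -1.82 (-4.25 to -0.02). The 16 UMIs came from 8 of 12 cells, with at most 4 in a cell. In those 12 cells 9 of the 14 endothelial markers had UMIs, led by *Eng*, with *Pecam1*, *Cdh5*, *Kdr* and *Cd34* at 0 and *Cldn5* at 0 by rule. Without *Eng* the markers summed to 7.24 UMIs per 10000 there, against 8.88 and 9.22 in the pericytes of Gpr124 fl/fl plates 1 and 2. The interval of the ratio reached past equal levels without Gpr124 fl/fl plate 1 (-2.22, -7.61 to 0.46), without Gpr124 fl/fl plate 2 (-1.58, -4.74 to 0.51) and without the cells that share a barcode with a well of at least 1000 UMIs in another plate, a choice made after the data were seen (-1.26, -3.74 to 0.66). It also did so with no UMI maximum (-1.01, -2.21 to 0.06), with plate totals not scaled and with either other mitochondrial limit. Over its alternatives the ratio ranged from -3.12, without the largest cells, to -1.01. In endothelial cells *Eng* was at 6.59 in Gpr124 fl/fl and 8.83 in Gpr124 dEC/dEC, with a log2 ratio of -0.42 (-1.75 to 0.85), or 0.13 (-1.54 to 1.60) without Gpr124 fl/fl plate 2, and the difference between the classes was not tested.

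*Bmpr2*, the type II receptor for BMPs (ENSMUSG00000067336, chromosome 1, 59763400 to 59879014, + strand), had 63 UMIs in all. Endothelial cells held 2 and 3 UMIs in Gpr124 fl/fl plates 1 and 2 and 8 and 6 in Gpr124 dEC/dEC plates 1 and 2, levels of 3.21, 3.35, 13.5 and 6.04. Pericytes held 4, 7 and 33 UMIs in Gpr124 fl/fl plates 1 and 2 and Gpr124 dEC/dEC plate 2, levels of 2.22, 4.97 and 6.83. The classes overlapped, with a pooled log2 ratio of 0.16 (-0.70 to 0.97), between -0.32 without Gpr124 dEC/dEC plate 1 and 0.85 without Gpr124 dEC/dEC plate 2. In each class, every Gpr124 dEC/dEC sum lay above every Gpr124 fl/fl sum, but pericytes had a single Gpr124 dEC/dEC sum. With so few sums such an order arises readily without a difference, and its share over all genes was not counted. The log2 ratio of Gpr124 fl/fl over Gpr124 dEC/dEC was -1.42 (-3.25 to 0.13) in endothelial cells and -0.99 (-2.13 to 0.03) in pericytes, and both intervals reached past equal levels. They did not in endothelial cells without Gpr124 dEC/dEC plate 2 (-2.04, -3.99 to -0.24), nor in pericytes without Gpr124 fl/fl plate 2 (-1.62, -3.58 to -0.13), without the largest cells, with a mitochondrial limit of 20% or without the pericyte with the most dissociation UMIs (-1.09, -2.24 to -0.05), left out after the data were seen. The ratio was nearer to equal levels in endothelial cells without Gpr124 dEC/dEC plate 1 (-0.87, -2.92 to 1.10) and in pericytes without Gpr124 fl/fl plate 1 (-0.46, -1.88 to 0.74).

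*Tgfbr2*, the type II receptor for TGFB (ENSMUSG00000032440, chromosome 9, 116084293 to 116175360, - strand), had 7 UMIs in endothelial cells and 9 in pericytes. The endothelial sums ranged from 1.61 to 3.35 UMIs per 10000 and the pericyte sums from 0 to 1.45, so that the ranges did not overlap. The pooled log2 ratio of endothelial cells over pericytes was 1.01, and its interval of -0.65 to 2.60 included equal levels. It was 1.93 (-0.68 to 5.32) without Gpr124 dEC/dEC plate 2, and -1.60 (-4.77 to 0.51) with classes from the sort gates. Between genotypes, the log2 ratio was 0.48 (-2.09 to 3.25) in endothelial cells and -1.22 (-4.52 to 1.18) in pericytes. The former was -0.24 (-5.95 to 3.40) without Gpr124 fl/fl plate 2, and the latter -0.03 (-3.33 to 2.36) without Gpr124 fl/fl plate 1. Over its alternatives the endothelial ratio ranged from -1.80 with classes from the sort gates to 1.88 with cells thinned to 1000 UMIs. The pericyte ratio ranged from -1.72 as a mean over cells to 0.16 with no UMI maximum, so no direction is given.

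*Acvrl1*, which encodes ALK1 (ENSMUSG00000000530, chromosome 15, 101128522 to 101145336, + strand), had 8 UMIs in endothelial cells and 10 in pericytes. Endothelial sums ranged from 0 in Gpr124 fl/fl plate 2 to 6.43 UMIs per 10000 in Gpr124 fl/fl plate 1, and pericyte sums from 0 to 2.13. The pooled log2 ratio of endothelial cells over pericytes was 1.05 (-0.49 to 2.54), 0.01 (-2.12 to 1.80) without Gpr124 fl/fl plate 1 and 1.78 (0.12 to 3.48) without Gpr124 fl/fl plate 2. The plates of a single genotype thus spanned the range of all 4 endothelial sums. The genotype ratio on the log2 scale was 0.06 (-2.36 to 2.49) in endothelial cells and -0.63 (-3.22 to 1.5) in pericytes. In endothelial cells it kept its sign in 9 of 17 alternatives and was 1.35 (-1.08 to 3.77) without Gpr124 fl/fl plate 2. In pericytes it turned to 0.56 (-2.03 to 2.69) without Gpr124 fl/fl plate 1 and to 0.69 (-2.22 to 3.59) without the largest cells, so no direction is given.

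Over the 4 receptors, the Gpr124 fl/fl pericytes had 19 UMIs (5.92 per 10000, 3.56 to 9.24) and the Gpr124 dEC/dEC pericytes 63 (13 per 10000, 10 to 16.7), a log2 ratio of -1.14 (-1.96 to -0.38). Endothelial cells held 23 UMIs in Gpr124 fl/fl (15.1, 9.60 to 22.7) and 35 in Gpr124 dEC/dEC (22.1, 15.4 to 30.7), a log2 ratio of -0.54 (-1.37 to 0.26). The pericyte ratio rested on Gpr124 fl/fl plate 1: without it the ratio was -0.50 (-1.48 to 0.38), and without Gpr124 fl/fl plate 2 it was -1.97 (-3.47 to -0.77). Without the cells that share a barcode it was -0.67 (-1.61 to 0.20). All Gpr124 dEC/dEC pericytes came from 1 plate, so genotype and plate cannot be told apart in this class.

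Markers of another cell type and of tissue dissociation differed in the same direction as the receptors in pericytes. So did the summed pericyte markers, at 159 UMIs per 10000 in Gpr124 fl/fl and 193 in Gpr124 dEC/dEC (log2 ratio -0.29, -0.44 to -0.13). Gpr124 fl/fl plate 1 alone was also at 193. Among them *Pdgfrb* stood at 12.5 and 19.6 (-0.66, -1.23 to -0.11), while *Notch3* (0.13) and *Mcam* (0.48) went the other way. In the Gpr124 dEC/dEC pericytes 8 of the 12 macrophage markers had UMIs, led by *C1qc* with 5, and these 17 UMIs were by the observed level at least 3.76-fold higher than in Gpr124 fl/fl pericytes against a floor of 3 UMIs over the group, while the counting interval of the log2 ratio of Gpr124 fl/fl over Gpr124 dEC/dEC ran up to -1.45. They came from 5 of 12 cells, with 12 in 1 cell, and the other 11 cells held 1.12 per 10000 (0.364 to 2.62). Without that cell, a choice made after the data were seen, the receptor ratio in pericytes was -1.21 (-2.03 to -0.45). Of the 12 genes known to respond to dissociation, 11 had UMIs in the Gpr124 dEC/dEC pericytes, led by *Egr1* with 24 and with *Hspa1b* at 0, and they summed to 26.9 UMIs per 10000. In those of Gpr124 fl/fl plates 1 and 2, 5 and 6 of the 12 had UMIs, with *Fos* and *Fosb* at 0, and they summed to 8.88 and 11.4. Of the 130 UMIs in Gpr124 dEC/dEC, 63 came from 1 cell, among them 18 of 19 of *Fos* and 10 of 10 of *Fosb*, and the other 11 cells held 16.3 per 10000 (12.6 to 20.7), against 9.97 (6.82 to 14.1) over the Gpr124 fl/fl pericytes. Without that cell, also chosen after the data were seen, the receptor ratio was -1.12 (-1.96 to -0.34). The part of the UMIs in the other cells was not tested.

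The summed targets did not separate the classes, while their members went opposite ways. Summed over the 5 genes, endothelial cells held 4.82 and 12.3 UMIs per 10000 in Gpr124 fl/fl plates 1 and 2 and 18.6 and 25.1 in Gpr124 dEC/dEC plates 1 and 2. Pericytes held 16.1, 14.2 and 16.5 in Gpr124 fl/fl plates 1 and 2 and Gpr124 dEC/dEC plate 2. The endothelial sums lay on both sides of the narrow pericyte range, and the pooled log2 ratio of the classes was 0.01 (-0.49 to 0.49). This sum joins *Id3*, at -0.59, with *Id1* at 2.05 and *Id2* at 2.37, so it says little of the single genes.

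*Id3*, a BMP-induced inhibitor of basic helix-loop-helix factors (ENSMUSG00000007872, chromosome 4, 136143497 to 136145755, + strand), gave 132 of the members' 345 UMIs. Endothelial cells held 3 and 4 UMIs in Gpr124 fl/fl plates 1 and 2 and 4 and 16 in Gpr124 dEC/dEC plates 1 and 2, levels of 4.82, 4.46, 6.75 and 16.1. Pericytes held 21, 18 and 66 UMIs in Gpr124 fl/fl plates 1 and 2 and Gpr124 dEC/dEC plate 2, levels of 11.7, 12.8 and 13.7. Pericytes were alike across plates, while the endothelial cells of Gpr124 dEC/dEC plate 2 stood above all other sums. The other 3 endothelial sums lay below all pericyte sums. Pooled over plates, the log2 ratio of endothelial cells over pericytes was -0.59 (-1.25 to 0.04), and -1.22 (-2.33 to -0.23) without Gpr124 dEC/dEC plate 2.

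*Id3* was the only member with enough UMIs for the test of endothelial cells against pericytes by edgeR over the 7 sums, which 146 genes other than *Cldn5* and *Pdgfrb* entered. While its endothelial sums ranged from 4.46 to 16.1 UMIs per 10000, *Id3* met the filter on low counts through its pericyte sums, at 11.7 to 13.7. *Id3* was thus let into the test by the class in which it was higher. It was higher in pericytes, with a log2 fold change of endothelial cells over pericytes of -1.0 (standard error 0.41, adjusted p = 0.04 by edgeR's quasi-likelihood test with Benjamini-Hochberg adjustment, 0.0185 to 1 over 20 alternatives, the highest with classes from the sort gates). The 7 sums come from 4 plates of 2 suspensions, and 3 plates gave both classes, so the sums are not independent samples and this p covers only the spread between them. Of the genes tested, 24.0% passed in the direction of pericytes and 9.59% in the direction of endothelial cells, so that 1 called member of 1 tested says nothing about the members as a group. With the replicate number as a block the adjusted p of edgeR was 0.0541, and with DESeq2 it was 0.117. The call was lost when any plate other than Gpr124 dEC/dEC plate 2 was left out, with edgeR's adjusted p at 0.115 without Gpr124 dEC/dEC plate 1, 0.134 without Gpr124 fl/fl plate 1 and 0.211 without Gpr124 fl/fl plate 2. It was also lost, at an edgeR adjusted p of 0.0511, without the pericyte with the most dissociation UMIs. Genes that respond to dissociation summed to 20.1 UMIs per 10000 in pericytes and 6.76 in endothelial cells. Their log2 ratio of endothelial cells over pericytes was -1.57 (-2.30 to -0.91), and their part in the *Id3* call was otherwise not tested. With no filter on low counts all 10 members were tested and 0 passed edgeR's test after adjustment, where 1.73% of 10827 genes passed toward pericytes and 0.453% toward endothelial cells. Before adjustment, 2 of the 10, *Id3* and *Smad7*, both toward pericytes, lay below 0.05 in that edgeR fit, as did 8.99% of the 10827 genes toward pericytes and 1.74% toward endothelial cells. DESeq2, run with the filter, called 0 members.

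Between genotypes, *Id3* was the 1 member whose counting interval in endothelial cells left out equal levels, at 4.61 UMIs per 10000 in Gpr124 fl/fl and 12.6 in Gpr124 dEC/dEC, a log2 ratio of -1.45 (-2.94 to -0.15). The share of all genes with such an interval was not computed, so this count says nothing of the members as a group. Both cells of Gpr124 dEC/dEC plate 2 were high, with 7 and 9 UMIs. The interval reached past equal levels without Gpr124 dEC/dEC plate 2 (-0.55, -2.53 to 1.67), Gpr124 fl/fl plate 1 (-1.5, -3.51 to 0.08) or Gpr124 fl/fl plate 2 (-1.39, -3.78 to 0.37), without the largest cells (-1.23, -2.95 to 0.33) and without the cells that share a barcode (-1.32, -3.10 to 0.33). Taken by sort gate instead of by markers, the ratio turned to 1.41 (-0.07 to 3.36). By gate, however, 6 of the 9 Gpr124 fl/fl wells taken as endothelial were pericytes by markers. In pericytes, *Id3* was at 12.1 in Gpr124 fl/fl and 13.7 in Gpr124 dEC/dEC, with a log2 ratio of -0.17 (-0.78 to 0.42).

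*Id1*, another gene of that family (ENSMUSG00000042745, chromosome 2, 152736251 to 152737410, + strand), showed the opposite class pattern in its pooled level. Endothelial cells held 0 and 4 UMIs in Gpr124 fl/fl plates 1 and 2 and 5 and 7 in Gpr124 dEC/dEC plates 1 and 2, levels of 0, 4.46, 8.44 and 7.04. Pericytes held 3, 0 and 7 UMIs in Gpr124 fl/fl plates 1 and 2 and Gpr124 dEC/dEC plate 2, levels of 1.67, 0 and 1.45. Only Gpr124 fl/fl plate 1 among the endothelial sums fell into the pericyte range. The pooled log2 ratio of endothelial cells over pericytes was 2.05 (0.82 to 3.35), and *Id1* did not pass edgeR's test without a filter. With classes from the sort gates the ratio was 0.95 (-0.17 to 2.03). Both Gpr124 dEC/dEC endothelial sums lay above both Gpr124 fl/fl sums, with a log2 ratio of the genotypes of -1.52 (-3.61 to 0.20), which was -0.76 (-2.85 to 0.96) without Gpr124 fl/fl plate 1, the plate at 0. The share of all genes with such an order of sums was not counted.

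*Id2*, of the same family (ENSMUSG00000020644, chromosome 12, 25093799 to 25097140, - strand), had 6 UMIs in endothelial cells and 3 in pericytes, with at most 1 in a cell. Its class levels were 1.93 and 0.373 UMIs per 10000, a log2 ratio of 2.37 (0.15 to 5.0). The interval included equal levels without either Gpr124 dEC/dEC plate (2.09, -0.47 to 4.87 without plate 1 and 1.93, -0.68 to 5.32 without plate 2), without Gpr124 fl/fl plate 2 (2.17, -0.95 to 5.75) and with classes from the sort gates (0.31, -2.32 to 2.53). Each genotype gave 3 of the 6 endothelial UMIs, and no fold is given between genotypes at such counts.

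The inhibitory SMADs, which restrain receptor signalling, were near the limit of detection. *Smad6* (ENSMUSG00000036867, chromosome 9, 63953076 to 64022059, - strand) had 1 UMI in endothelial cells and 3 in pericytes. *Smad7* (ENSMUSG00000025880, chromosome 18, 75367529 to 75395935, + strand) had 0 UMIs in all 4 endothelial sums, where the floor of 3 UMIs over the class is 0.966 per 10000. Pericytes held 2, 1 and 5 *Smad7* UMIs in Gpr124 fl/fl plates 1 and 2 and Gpr124 dEC/dEC plate 2, a pooled level of 0.994. This lay close to that floor, and the counting interval of the log2 ratio of endothelial cells over pericytes ran up to 0.60, past equal levels, so no fold is given. The *Smad7* UMIs of Gpr124 dEC/dEC came from 5 cells with 1 each.

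Over the 5 targets, endothelial cells held 14 UMIs in Gpr124 fl/fl (9.22 per 10000, 5.04 to 15.5) and 36 in Gpr124 dEC/dEC (22.7, 15.9 to 31.4), a log2 ratio of -1.30 (-2.30 to -0.37). Within plates of the same number the direction was alike, at 4.82 against 18.6 in plates 1 and 12.3 against 25.1 in plates 2. The interval included equal levels without Gpr124 fl/fl plate 1 (-0.89, -2.01 to 0.12) or without Gpr124 dEC/dEC plate 2 (-1.01, -2.26 to 0.27). Without the cells that share a barcode it was -1.21 (-2.36 to -0.10), and with classes from the sort gates 0.29 (-0.64 to 1.33). In the latter setting 6 of the 9 Gpr124 fl/fl wells taken as endothelial were pericytes by markers. The Gpr124 fl/fl pericytes had 49 UMIs (15.3 per 10000, 11.3 to 20.2) and the Gpr124 dEC/dEC pericytes 80 (16.5, 13.1 to 20.6), a log2 ratio of -0.12 (-0.66 to 0.41). Whether the genotype ratios of the 2 classes differed from each other was not tested. Erythroid genes marked 1 of the plates compared: in Gpr124 fl/fl plate 2, 4 of 7 had UMIs in endothelial cells and reached a level of 260, led by *Hba-a2* with 91 UMIs, against 0 to 8.44 in the other endothelial sums. Without that plate the ratio of the targets was -2.24 (-4.58 to -0.57), and the part of these genes in it was otherwise not tested.

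*Tgfb2* (ENSMUSG00000039239, chromosome 1, 186622792 to 186705989, - strand) is a ligand that binds TGFBR2 with the help of a co-receptor. Endothelial cells held 2 and 4 UMIs in Gpr124 fl/fl plates 1 and 2 and 0 and 1 in Gpr124 dEC/dEC plates 1 and 2, levels of 3.21, 4.46, 0 and 1.01. Pericytes held 6, 6 and 7 UMIs in Gpr124 fl/fl plates 1 and 2 and Gpr124 dEC/dEC plate 2, levels of 3.33, 4.26 and 1.45. In each class, every Gpr124 fl/fl sum lay above every Gpr124 dEC/dEC sum. As for *Bmpr2*, such an order arises readily among so few sums, and its share over all genes was not counted. The log2 ratio was 2.65 (-0.39 to 8.17) in endothelial cells and 1.37 (-0.09 to 2.95) in pericytes, and both intervals included equal levels. In pericytes it was 0.01 (-0.91 to 0.90) with no UMI maximum, 2.78 (0.51 to 6.03) without the cells that share a barcode and 1.62 (0.01 to 3.48) without the pericyte with the most dissociation UMIs. In endothelial cells it was 0.64 (-3.62 to 6.53) without the largest cells, 1.26 (-2.08 to 6.88) without the cells that share a barcode and 3.16 (0.11 to 8.68) with a mitochondrial limit of 5%. Between classes the pooled levels were close, with a log2 ratio of endothelial cells over pericytes of -0.07 (-1.56 to 1.25). All 4 UMIs of Gpr124 fl/fl plate 2 endothelium came from 1 cell, and 5 of the 6 of its pericytes came from 1 cell.

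**Figure D2:**
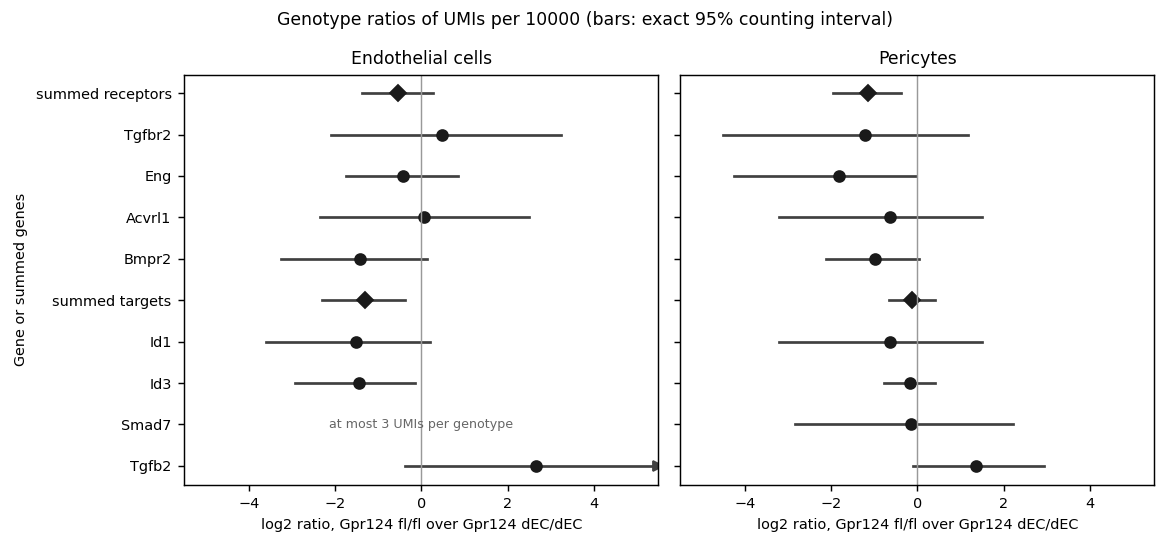
Log2 ratio of UMIs per 10000 in Gpr124 fl/fl over Gpr124 dEC/dEC (horizontal axis) for the members with more than 3 UMIs in a genotype and for the summed receptors and targets (vertical axis), in endothelial cells (left) and pericytes (right). Points are pooled ratios, diamonds are sums over genes, bars are exact conditional 95% counting intervals and an arrow marks an interval that runs off the axis. The summed targets lay at -1.30 in endothelial cells and -0.12 in pericytes.

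Genes were also counted past a ratio of 2-fold between genotypes, among those with at least 20 UMIs in the class. In endothelial cells, *Eng* and *Id3* had that many, and *Id3* was past 2-fold toward Gpr124 dEC/dEC, as were 11.3% of 212 genes, while 7.08% were past it toward Gpr124 fl/fl. In pericytes, *Bmpr2* and *Id3* had that many and 0 members were past 2-fold, against 6.64% of 753 genes toward Gpr124 dEC/dEC and 6.11% toward Gpr124 fl/fl. *Bmpr2* fell just short there, at 1.99-fold. The median log2 ratio of these members was -0.89 in endothelial cells, beside 0.06 over the 212 genes, and -0.56 in pericytes, beside -0.02 over the 753 genes. With 2 members measured in each class, these values say little of the list.

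Of 63 further pathway genes, 47 had at least 1 UMI in the retained cells, and they summed to 133 UMIs in endothelial cells and 700 in pericytes. The ligands were scarce: 7 of 11 were at 0, and the other 4 summed to 7 UMIs in endothelial cells and 6 in pericytes. All 7 endothelial UMIs were of *Tgfb1*, which had 1 UMI in pericytes, a log2 ratio of endothelial cells over pericytes of 4.18 (1.22 to 9.68). The 8 other receptors and co-receptors gave 5 UMIs in endothelial cells and 24 in pericytes. *Bmpr1a*, a type I BMP receptor, had 12 of these in pericytes and 0 in endothelial cells, by the observed level at least 1.54-fold higher in pericytes against a floor of 3 UMIs over the endothelial class, while the counting interval of the log2 ratio ran up to -0.10. The intervals of 3 further genes outside the 10 pathway genes with the most UMIs left out equal levels in the direction of endothelial cells. *Bambi*, a pseudoreceptor that inhibits these pathways, had 7 UMIs in endothelial cells and 2 in pericytes, a log2 ratio of 3.18 (0.79 to 6.48). The transcription factor gene *Hey1* and the protease gene *Htra1* each had 7 and 3, a log2 ratio of 2.60 (0.47 to 5.18). By plate, endothelial levels ranged from 0 to 8.44 UMIs per 10000 for *Hey1* and from 0 to 5.07 for *Htra1*. Of the 7 endothelial *Hey1* UMIs, 4 came from 1 cell of Gpr124 dEC/dEC. The choice of these 5 genes followed a look at their values. In edgeR's test without a filter 0 of the 5 passed after adjustment, and 2, *Tgfb1* and *Bmpr1a*, lay below 0.05 before it, as did 14 of the 47 pathway genes and, over the 10827 genes tested, 8.99% toward pericytes and 1.74% toward endothelial cells. Since the 5 were picked by their values, their count says nothing of the pathway.

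In the class comparison 2 of the 63 genes had enough UMIs, both passed and both were higher in pericytes, a direction in which 24.0% of the 146 genes tested passed, against 9.59% toward endothelial cells. Both met the filter on low counts through their pericyte sums, so their shared direction says little of the pathway. *Fstl1*, a secreted glycoprotein that binds BMP ligands, held 6.43, 2.23, 13.5 and 5.03 UMIs per 10000 in the endothelial sums of Gpr124 fl/fl plates 1 and 2 and Gpr124 dEC/dEC plates 1 and 2. Pericytes held 22.8, 31.2 and 22.5, above all endothelial sums, and the log2 fold change was -2.41 (standard error 0.36, edgeR adjusted p = 6.96e-10, 2.26e-10 to 1 over its alternatives). *Acta2*, the smooth muscle actin that TGFB induces and that is also a smooth muscle marker, ranged from 0 to 4.02 in endothelial cells and from 11.2 to 15 in pericytes (log2 fold change -2.78, standard error 0.54, edgeR adjusted p = 2.81e-06, 1.55e-09 to 1 over its alternatives), so that all 4 endothelial sums lay below all 3 pericyte sums. Classes from the sort gates gave the highest of these values for both genes. With no filter on low counts, 4 of 47 passed, all toward pericytes, the other two being *Col1a2* and *Tagln*, beside 1.73% of 10827 genes toward pericytes and 0.453% toward endothelial cells.

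The 10 pathway genes with the most UMIs included *Fstl1* and *Acta2*. Among the other 8, *Col1a2*, a fibrillar collagen chain, had 89 UMIs in pericytes and 1 in endothelial cells, a log2 ratio of endothelial cells over pericytes of -5.10 (-10.42 to -2.59). *Tagln*, an actin-binding protein of contractile cells, had 29 UMIs in pericytes and 0 in endothelial cells, by the observed level at least 3.73-fold higher in pericytes against a floor of 3 UMIs over the endothelial class, while the counting interval of the log2 ratio ran up to -1.51. *Ccn2*, a matricellular protein induced by TGFB, had 35 and 4, a log2 ratio of -1.76 (-3.71 to -0.27). These 3 genes were higher in pericytes beyond counting error, but *Ccn2* did not pass edgeR's test without a filter (edgeR adjusted p = 0.0979). The intervals of 4 genes included equal levels: the ratio was -2.02 (-5.16 to 0.01) for *Ccn1*, where 13 of 21 pericyte UMIs came from 1 cell. It was -1.71 (-4.87 to 0.36) for *Fn1* and -0.69 (-2.26 to 0.64) for the nuclear repressor *Ski*. *Pmepa1* stood at 1.61 UMIs per 10000 in endothelial cells and 1.62 in pericytes. *Fkbp1a*, whose protein FKBP12 binds type I receptors, stood at 19.3 and 7.81 UMIs per 10000 in endothelial cells of Gpr124 fl/fl plates 1 and 2, at 3.38 and 7.04 in those of Gpr124 dEC/dEC plates 1 and 2, and at 5.55, 4.26 and 4.55 in pericytes. The classes overlapped. Its pooled log2 ratio was 0.93 (0.17 to 1.68), while edgeR without a filter gave a log2 fold change of 0.11 (standard error 0.57) that did not pass. Between genotypes, *Fkbp1a* was past 2-fold toward Gpr124 fl/fl in endothelial cells (log2 ratio 1.14, -0.07 to 2.47), as were 7.08% of 212 genes. Of its 19 Gpr124 fl/fl UMIs, 12 came from plate 1, while plate 2, at 7.81, lay near the 7.04 of Gpr124 dEC/dEC plate 2. In pericytes 0 of the 8 pathway genes with at least 20 UMIs were past 2-fold, against 6.64% of 753 genes toward Gpr124 dEC/dEC and 6.11% toward Gpr124 fl/fl. Their median log2 ratio in pericytes was 0.19, beside -0.02 over the 753 genes.

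Patterns like those of the members were sought over the 7 sums, as Pearson correlations of log2(UMIs per 10000 + 1) among 617 genes with at least 30 UMIs. The 7 sums share plates and suspensions and differ in depth, so the correlations are descriptions. *Slc38a2* (r = 0.96), *Pfn1* (0.95) and *Hdac7* (0.93) were most like *Eng*. *Igfbp7* (0.86), *Apbb2* (0.85) and *Jag1* (0.84) were most like *Bmpr2*, and *Arhgap1* (0.95), *Tceal9* (0.93) and *Sema6d* (0.92) were most like *Id3*. The other 7 members had fewer than 30 UMIs.

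*Fpgs* overlaps *Eng*, an antisense gene overlaps *Acvrl1* and another overlaps *Tgfb2*, each on the opposite strand. *Brf2* overlaps *Adgra2* on the opposite strand, and an unclassified transcript overlaps *Bmpr2* on its own strand. The small RNA genes *Mir1954*, *Gm47291* and *Gm26236* overlap *Eng* on its own strand, and *Gm26169* overlaps *Tgfb2* on the opposite strand. Whether the counting used strand is not given in the sources used here, so UMIs of such pairs cannot be told apart where they overlap.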

How the data were processed

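The authors sorted live single cells into 4 plates, aligned the SORT-seq reads to GRCm38 with STARsolo 2.7.11b and deposited estimated counts, the number of UMIs of each gene in each well before any scaling. These estimated counts are not all whole, and 96.5% of the deposited values lie within 0.01 of a whole number. Whole-number counts had been planned for, so values were rounded to whole UMIs before sums and tests, and used as deposited for the limits on wells. Spike-ins were left out of totals. Plate medians of 141 and 157 UMIs (Gpr124 fl/fl plates 1 and 2) and 81.5 and 146 (Gpr124 dEC/dEC plates 1 and 2) were brought to the highest by factors of 1.11, 1, 1.93 and 1.08. The filters follow the study's methods, but the retained cells differ in total, and in how the pericytes split between genotypes, from those the study states, for a reason that was not tested. Doublets were not called, and the wells with both markers were left out.

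UMIs were summed per class and plate. Endothelial cells and pericytes were compared by edgeR 4.0.16 (glmQLFit, glmQLFTest, TMM, filterByExpr, Benjamini-Hochberg over 148 genes, called below 0.05) in R 4.3.3, with *Cldn5* and *Pdgfrb* then left out. Standard errors were derived from the F statistic. DESeq2 1.42.0 was an alternative. Genotype sums carry exact Poisson intervals and their ratios exact conditional binomial ones, from scipy 1.17.1. The floor was 3 UMIs over a group, and list medians of genotype ratios add 0.5 UMI to each sum. The methods were tested on simulated data. Genes named beside the members were the pathway genes called between classes, the 10 pathway genes with the most UMIs, and the 3 genes most correlated with each member of at least 30 UMIs. *Bmpr1a*, *Tgfb1*, *Bambi*, *Hey1* and *Htra1* were chosen once their values were known. The erythroid genes at 0 are not reported here by name. The members and lists were chosen with earlier results of these data known.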

Additional observations from a re-analysis of the deposited data

Results flagged for a closer look

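*Smad6* stood apart in the endothelial cells of Gpr124 dEC/dEC plate 2, at 1.01 UMIs per 10000 against 0 in the other 3 endothelial sums, but this level is 1 UMI, below the floor of 3. The erythroid genes stood apart in the endothelial cells of Gpr124 fl/fl plate 2, at 260 UMIs per 10000, by 0.968 of the range of the 4 sums. Of 18 groups examined, 2 were marked. For normally distributed values the rule used marks about 1 in 20 groups by chance, but these levels are low counts. A gene with UMIs in only 1 of the 4 sums is always marked, as *Smad6* was, so the number marked cannot be set against that rate.

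The levels of *Adgra2* in the genotypes lay in opposite directions in the classes. In endothelial cells its level was 1.98 UMIs per 10000 in Gpr124 fl/fl and 0 in Gpr124 dEC/dEC, and in pericytes 2.18 and 3.52. The endothelial levels are 3 and 0 UMIs, and the log2 ratio of Gpr124 fl/fl over Gpr124 dEC/dEC in pericytes, -0.69 (-2.20 to 0.65), included equal levels, with Gpr124 fl/fl plate 1 at 3.33. The difference between the classes was not tested.

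Wells outside the limits held UMIs of the members too. *Id2* was at 1.77 UMIs per 10000 (1.27 to 2.41) in the 1478 wells under 1000 UMIs, above its 0.807 (0.369 to 1.53) in the retained cells, and at 0 in the 11 wells over 8000 UMIs. By class, *Id2* was at 1.93 in the retained endothelial cells and 0.373 in the pericytes, so the wells under 1000 UMIs exceeded only the pericytes. *Tgfb2* was at 4.85 (3.55 to 6.48) in the wells over 8000 UMIs, above its 2.33 (1.52 to 3.42) in the retained cells. Those wells comprised 6 of Gpr124 dEC/dEC plate 2, with 26 of the 46 *Tgfb2* UMIs, and 3 of Gpr124 fl/fl plate 2, with 16. Plate 1 of either genotype gave 1 well, with 2 UMIs.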

How the results depend on the processing

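The count of 1 member called between endothelial cells and pericytes was the same with genotype as a covariate, spike-ins in the totals, a UMI minimum of 500, a mitochondrial limit of 20%, without Gpr124 dEC/dEC plate 2 and, chosen after the data were seen, without the pericyte with the most macrophage UMIs. It was 0 with DESeq2, library size alone, no filter on low counts, no scaling of plates, no UMI maximum, a mitochondrial limit of 5%, classes from the sort gates and without the cells that share a barcode or the pericyte with the most dissociation UMIs, the last pair chosen after the data were seen. It was also 0, with no member tested, without the largest cells and with cells thinned to 1000 UMIs. Leaving out each plate in turn gave 0 to 1. Among all genes, 49 of 146 were called, against 236 of 10827 with no filter, 0 of 567 with the sort gates (3 members tested), 26 of 68 without the largest cells, 30 of 148 without Gpr124 dEC/dEC plate 2, 21 of 121 without the cells that share a barcode and 6 of 19 (3 to 9 over draws) with thinned cells. Pathway genes called ranged from 0 to 4. *Id3* kept its direction in all 20 alternatives that tested it, with log2 fold changes from -1.70 to -0.23.

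The replicate block gave 0 members called, and so did the plate as replicate block. The replicate number marks the sort gate and not a shared animal, and deviations of sums with the same number correlated between -0.119 and 0.097. *Fstl1* and *Acta2* were called in both blocked fits.

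With classes from the sort gates, the genotype ratio of the summed targets in endothelial cells turned from -1.30 to 0.29, that of *Id3* from -1.45 to 1.41, and the class ratio of the summed receptors from 0.87 to -0.12. In that setting 6 of the 9 Gpr124 fl/fl wells taken as endothelial were pericytes by markers and 2 were endothelial. Of the 7 Gpr124 dEC/dEC wells taken as endothelial, 4 were endothelial by markers and 0 were pericytes. The endothelial genotype ratios by gate thus compare groups of unlike class, and the part of this in the changes was not tested. That setting took 16 endothelial cells and 26 pericytes, with every well of Gpr124 dEC/dEC plate 2 as PDGFRB, since the positions of its CD31 wells are not given in the sources used here. Without each plate in turn, the ratio of the summed receptors in pericytes ranged from -1.97 to -0.50. The other genotype ratios of the summed receptors and targets moved by less than their counting intervals. Without Gpr124 dEC/dEC plate 2 no pericyte ratio could be given. Depth limits the members: 7 of 10 had fewer than 30 UMIs.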

Other observations

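Summed over the 10 members, the retained cells held 30.9 UMIs per 10000 (27.8 to 34.4), the 1478 wells under 1000 UMIs 13.3 (11.8 to 14.9) and the 11 wells over 8000 UMIs 20.4 (17.6 to 23.5). *Id3* was at 11.8, 4.92 and 7.60 in these 3 groups of wells and *Bmpr2* at 5.65, 1.91 and 2.11. The 1 well over 8000 UMIs of Gpr124 dEC/dEC plate 1 held the members at 53.6 (36.6 to 75.6), with 14 UMIs of *Id3* and 8 of *Id1*. The wells over 8000 UMIs of the other plates, summed by plate, held 16.8 (6 wells of Gpr124 dEC/dEC plate 2), 19.4 (1 of Gpr124 fl/fl plate 1) and 20.2 (3 of Gpr124 fl/fl plate 2). Single wells of the plates with several were not compared.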
